A study of Homo sapiens with 12 samples.

Results

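A set of 10 genes for inflammatory chemokines and cytokines was followed across 2 human endometrial cancer cell lines exposed to copper. They are CXCL8, CXCL1, CXCL2, CXCL3, CCL20, IL1A, IL1B, IL6, IL11 and LIF, 10 of the 20332 genes in the deposited tables, and each was found by its symbol. The group was chosen from measured values, namely the level in untreated KLE cells against untreated Ishikawa cells and the response of Ishikawa cells to copper. Those 2 contrasts, and any that use their libraries together, are therefore given for the 10 genes as descriptions without p-values, and where calls in them are counted, the counts describe the choice. Only for the copper response of KLE cells are test results given for them, and that response shares its untreated libraries with the first contrast.

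The study sequenced polyadenylated RNA of Ishikawa and KLE cells. Each line was kept as a control, which the labels call both untreated and vehicle, or exposed to 200 µM CuCl2, and both were collected at 24 h. Each of the 4 groups held 3 libraries that the labels describe as independent biological replicates, 12 in all. Both are established lines, so each group is 1 cultured line under 1 condition, and in bulk RNA fewer cells of a type and less RNA per cell cannot be told apart.

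Chemokines are small secreted proteins that draw leukocytes along a gradient. CXCL8 and its relatives CXCL1, CXCL2 and CXCL3 act on the neutrophil receptors CXCR1 and CXCR2, and CCL20 acts on CCR6. IL-1α and IL-1β are 2 ligands of 1 receptor, IL1R1, whose signal passes through NF-kB and MAP kinases to the promoters of many of the other genes, while IL-6, IL-11 and LIF signal through the shared chain gp130 (IL6ST) to JAK kinases and STAT3. Many of these transcripts are short-lived, because AU-rich elements in their 3′ untranslated regions (UTRs) recruit decay factors such as tristetraprolin (ZFP36).

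Libraries held between 14050275 and 25057003 counts, untreated Ishikawa replicate 2 being the deepest. Of 9 epithelial markers, 7 stood at 1 TPM or more in every group, while the hormone receptors of endometrium were near 0 (0.124 TPM of ESR1 and 0.144 TPM of PGR in Ishikawa controls, and 0.104 and 0.0793 TPM in KLE controls). The sum over 12 leukocyte markers ranged from 17 to 28.8 TPM in Ishikawa libraries and from 20.7 to 37.5 TPM in KLE libraries, most of it from CD68 and S100A9. PTPRC, the pan-leukocyte marker, stood between 0.232 and 0.808 TPM as a group mean, and S100A8 in untreated Ishikawa cells and MS4A1 in untreated Ishikawa and treated KLE cells had 0 counts. The sum over 9 fibroblast and stromal markers ranged from 8.81 TPM in untreated Ishikawa replicate 2 to 64.8 TPM in an untreated KLE library, and that over 5 endothelial markers from 1.39 to 4.14 TPM.

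CXCL8 was the most abundant of the 10 transcripts in both copper-treated groups and in untreated Ishikawa cells, and LIF in untreated KLE cells. The 10 genes together summed to 12 TPM (a scale per transcript length on which genes can be compared) in untreated Ishikawa cells, 162 TPM after copper, 73.4 TPM in untreated KLE cells and 113 TPM after copper. CXCL8 made up 31% of that sum in untreated Ishikawa cells and 77% after copper, and 30.5% and 50.7% in KLE cells. LIF made up 23.1% and 3.8% in Ishikawa cells and 47% and 32.8% in KLE cells.

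Without copper, the order in Ishikawa cells was CXCL8 at 3.72 TPM, LIF at 2.77 TPM and CXCL3 at 1.68 TPM, with the other 7 genes between 0.091 TPM (IL1B) and 1.15 TPM (CCL20). The library ranges of neighbours in that order overlapped from CXCL3 downwards. In untreated KLE cells LIF stood at 34.5 TPM, CXCL8 at 22.4 TPM, IL1A at 4.87 TPM and IL1B at 4.4 TPM. IL1A and IL1B overlapped there, as did the run of CXCL3, CXCL1, CXCL2 and CCL20 between 1.41 and 1.93 TPM and the pair IL11 and IL6 at 0.25 and 0.213 TPM.

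After copper, Ishikawa cells held CXCL8 at 125 TPM and CCL20 at 16.2 TPM, followed by IL11 at 6.48 TPM and LIF at 6.17 TPM, whose ranges overlapped. Copper-treated KLE cells held CXCL8 at 57.3 TPM, LIF at 37.1 TPM, IL1A at 6.23 TPM and IL1B at 3.53 TPM. The other 6 genes lay between 1.02 and 2.11 TPM in those KLE libraries, with overlapping ranges from one to the next.

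**Figure D1:**
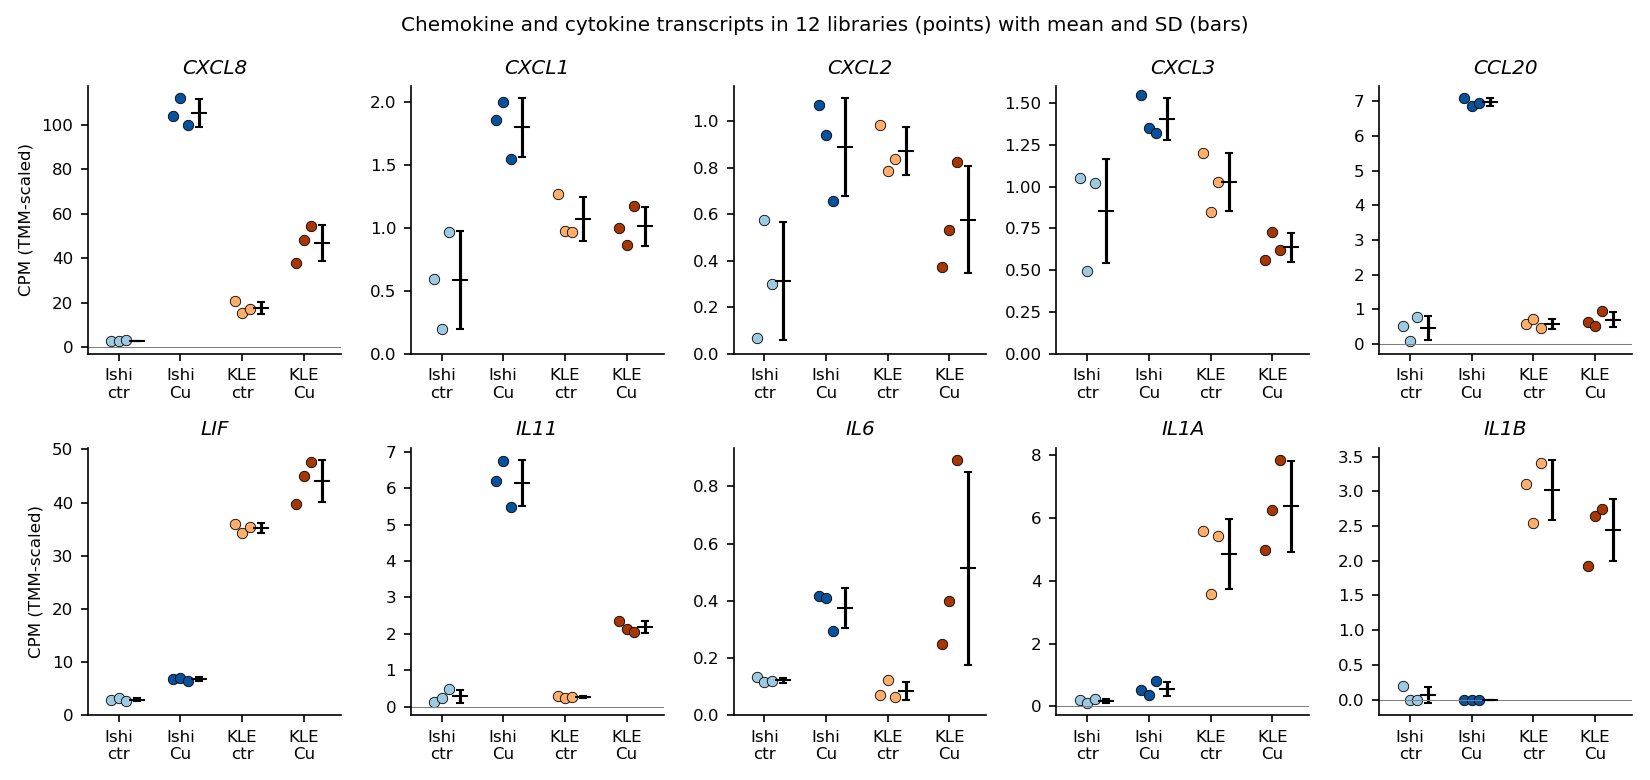
CPM (counts scaled to the library total with TMM factors) of the 10 genes in the 12 libraries, with a linear axis for each gene; points are libraries and bars the mean and SD of 3 libraries, for untreated (ctr) and CuCl2-treated (Cu) Ishikawa (Ishi) and KLE cells. CXCL8 lies between 100 and 112 CPM in treated Ishikawa cells and at most at 54.5 CPM elsewhere, whereas IL1A, IL1B and LIF are highest in the KLE groups.

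CXCL8, which encodes the neutrophil attractant interleukin-8, lies on chromosome 4 (GRCh38 chr4:73740506-73743716, plus strand) beside the other CXC chemokine genes. Its RefSeq promoter window (250 bases before to 50 after the annotated start, GRCh38.p14) is shown because it holds, close together, an AP-1 match and an NF-kB-like match, both in capitals.

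CXCL8 (chr4:73740319-73740618, plus strand): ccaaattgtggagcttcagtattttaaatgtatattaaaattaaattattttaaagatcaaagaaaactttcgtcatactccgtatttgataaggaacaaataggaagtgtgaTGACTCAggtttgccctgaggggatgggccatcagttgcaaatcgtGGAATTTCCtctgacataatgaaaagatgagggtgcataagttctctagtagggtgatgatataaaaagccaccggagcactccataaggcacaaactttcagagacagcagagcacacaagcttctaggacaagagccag

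CPM of CXCL8 were 2.9, 2.75 and 3.13 in the untreated Ishikawa libraries and 104, 112 and 100 in the treated ones. In KLE cells they were 20.8, 15.3 and 17.2 without copper and 38.1, 48.2 and 54.5 with it. All 4 groups were separate from each other, with untreated Ishikawa cells lowest and treated Ishikawa cells highest.

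Untreated KLE cells held more CXCL8 than untreated Ishikawa cells, by 2.60 ± 0.18 (log2 difference ± SE), and copper-treated Ishikawa cells more than untreated ones, by 5.23 ± 0.09. In KLE cells CXCL8 rose with copper by 1.41 ± 0.19 on the log2 scale, 2.65-fold (95% interval of the log2 change 1.03 to 1.78; edgeR, adjusted p = 0.00322). The KLE change was 3.77 smaller on the log2 scale than the Ishikawa change (-3.77 ± 0.21). After copper, the order of the lines was the opposite of that without it, with CXCL8 in KLE cells at -1.17 ± 0.11 against Ishikawa cells (log2 difference).

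CXCL1, CXCL2 and CXCL3 (growth-regulated oncogene α, β and γ) encode close relatives that also attract neutrophils. Their genes lie on chromosome 4 at chr4:73869393-73871242 (CXCL1, plus strand), chr4:74097035-74099293 (CXCL2, minus strand) and chr4:74036589-74038807 (CXCL3, minus strand). Their coding sequences were 90.7 to 94.4% identical in pairs, so reads common to them may not be assigned with certainty, and the level of each is uncertain to an extent that was not measured here. A stretch of 120 bases around the NF-kB match of each RefSeq promoter window shows how alike the promoters are at this place, with the matched bases in capitals on the strand of the gene.

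CXCL1 (chr4:73869284-73869403, plus strand): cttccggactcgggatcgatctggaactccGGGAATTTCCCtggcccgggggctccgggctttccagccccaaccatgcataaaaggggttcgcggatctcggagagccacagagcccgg

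CXCL2 (chr4:74099184-74099303, minus strand): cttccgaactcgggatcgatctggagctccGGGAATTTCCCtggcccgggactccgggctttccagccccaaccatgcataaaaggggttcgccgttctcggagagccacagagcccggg

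CXCL3 (chr4:74038679-74038798, minus strand): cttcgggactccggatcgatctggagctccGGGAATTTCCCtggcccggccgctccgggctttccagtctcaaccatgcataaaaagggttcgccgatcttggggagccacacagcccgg

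The capitals are the same 11 bases in all 3 genes and begin 78 (CXCL2) or 79 bases before the start. Over the whole windows of 300 bases, identity was 69.8% between CXCL1 and CXCL2, 82.5% between CXCL1 and CXCL3 and 73.7% between CXCL2 and CXCL3.

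CXCL1 stood at 0.592, 0.191 and 0.964 CPM in the untreated Ishikawa libraries and at 1.85, 2 and 1.54 CPM in the treated ones. In KLE cells it stood at 1.27, 0.97 and 0.965 CPM without copper and at 0.995, 0.863 and 1.17 CPM with it. The treated Ishikawa libraries lay above all others, and the KLE groups overlapped.

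CXCL2 stood at 0.0658, 0.573 and 0.301 CPM in untreated Ishikawa cells, from 1, 15 and 5 counts, and at 1.07, 0.94 and 0.658 CPM in treated ones. The KLE libraries stood at 0.986, 0.788 and 0.836 CPM and, with copper, at 0.373, 0.531 and 0.825 CPM. Untreated Ishikawa libraries lay below treated Ishikawa and untreated KLE libraries, and treated KLE libraries overlapped all 3 other groups.

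CXCL3 stood at 1.05, 0.497 and 1.02 CPM in untreated Ishikawa cells and at 1.55, 1.35 and 1.32 CPM in treated ones. In KLE cells it stood at 1.2, 0.849 and 1.03 CPM without copper and at 0.56, 0.73 and 0.619 CPM with it. Its treated libraries were above the untreated ones in Ishikawa cells and below them in KLE cells, without overlap in either line.

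The log2 differences of copper-treated from untreated Ishikawa cells were 1.78 ± 0.43 for CXCL1, 1.40 ± 0.50 for CXCL2 and 0.83 ± 0.35 for CXCL3. In KLE cells none of the 3 passed the test, with CXCL1 at -0.07 ± 0.35 (95% interval -0.76 to 0.61; edgeR, adjusted p = 0.878), CXCL2 at -0.59 ± 0.42 (-1.41 to 0.22; adjusted p = 0.242) and CXCL3 at -0.67 ± 0.39 (-1.43 to 0.08; adjusted p = 0.145). A limma fit of the deposited TPM called CXCL3 lower in KLE cells, at -0.43 on log2(TPM + 1) (adjusted p = 0.0281) and at -0.67 on log2(TPM + 0.1) (adjusted p = 0.0365). The Ishikawa values of these low transcripts depended on the untreated libraries. CXCL1 was 1.24 without untreated replicate 2 and 2.38 without replicate 3, and CXCL2 was 2.26 without replicate 2.

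Between untreated lines, CXCL1 was higher in KLE cells by 0.96 ± 0.42, CXCL2 by 1.29 ± 0.48 and CXCL3 by 0.31 ± 0.35 (log2 difference ± SE). Untreated Ishikawa replicate 2 held the lowest CPM of CXCL8, CXCL1, CXCL3, CCL20, IL1A and IL6 in its group. It held the highest of CXCL2 (0.573 CPM) and LIF (3.21 CPM). Its sum of fibroblast and stromal markers was also the lowest, and the part of these markers in the values above was not tested.

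CCL20 encodes the attractant of CCR6-bearing lymphocytes and dendritic cells, and the gene spans chr2:227805739-227817564 (GRCh38, plus strand). Its promoter window is shown for the NF-kB consensus match, read on the opposite strand and given in capitals, and the TATAAA box that follows it.

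CCL20 (chr2:227813592-227813891, plus strand): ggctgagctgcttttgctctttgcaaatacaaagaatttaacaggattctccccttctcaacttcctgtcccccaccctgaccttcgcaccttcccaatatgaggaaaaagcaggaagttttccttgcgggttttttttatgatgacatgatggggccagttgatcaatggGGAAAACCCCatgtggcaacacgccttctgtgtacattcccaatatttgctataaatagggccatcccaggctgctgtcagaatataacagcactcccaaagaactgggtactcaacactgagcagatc

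CCL20 stood at 0.527, 0.0764 and 0.783 CPM in untreated Ishikawa libraries and at 7.09, 6.87 and 6.95 CPM in treated ones. The KLE libraries stood at 0.563, 0.727 and 0.45 CPM without copper and at 0.622, 0.531 and 0.963 CPM with it. The treated Ishikawa libraries were far above the other 9, which overlapped across lines.

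The Ishikawa difference was 4.12 ± 0.40 on the log2 scale, from 23 counts over the untreated libraries and 331 over those with copper; their ratio was 17.6 (11.5 to 28.1 at 95%, counting error only). It was 3.43 without untreated replicate 2 and 4.83 without replicate 3. In KLE cells CCL20 did not pass the count filter, and a fit without a filter gave 0.27 ± 0.51 (interval -0.74 to 1.28; edgeR, adjusted p = 0.719). Untreated KLE and Ishikawa cells differed by 0.49 ± 0.50 in CCL20, and after copper KLE cells stood at -3.30 ± 0.35 against Ishikawa cells.

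LIF encodes leukemia inhibitory factor, a gp130 cytokine known in endometrium for its role in embryo implantation, and the gene lies at chr22:30240447-30246851 (minus strand). Its CPM were 2.83, 3.21 and 2.59 in untreated and 6.8, 7.05 and 6.36 in treated Ishikawa cells. In KLE cells they were 36, 34.2 and 35.3 without copper and 39.7, 44.9 and 47.6 with it. The 4 groups were separate, and the lines differed by more than copper changed either of them.

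The untreated lines differed by 3.59 ± 0.11 on the log2 scale, with KLE cells higher, and treated Ishikawa cells exceeded untreated ones by 1.27 ± 0.16. In KLE cells LIF rose with copper by 0.33 ± 0.06 (1.25-fold; edgeR, adjusted p = 5.43e-05). This call was lost on the deposited TPM, where the change was 0.10 on log2(TPM + 1) (limma, adjusted p = 0.2) and 0.11 with a pseudocount of 0.1 (adjusted p = 0.201).

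IL11 encodes interleukin-11, which acts with its own receptor chain and gp130, and the gene lies at chr19:55364389-55370463 (minus strand). Its promoter window is shown for the AP-1 match, in capitals, 96 to 90 bases before the start.

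IL11 (chr19:55370414-55370713, minus strand): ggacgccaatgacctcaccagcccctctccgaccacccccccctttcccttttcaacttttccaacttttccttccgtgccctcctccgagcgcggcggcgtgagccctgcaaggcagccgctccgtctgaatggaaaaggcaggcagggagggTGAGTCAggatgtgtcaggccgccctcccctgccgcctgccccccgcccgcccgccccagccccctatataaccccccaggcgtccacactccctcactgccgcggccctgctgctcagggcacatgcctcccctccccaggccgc

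IL11 stood at 0.132, 0.229 and 0.482 CPM in untreated Ishikawa libraries and at 6.2, 6.76 and 5.49 CPM in treated ones. In KLE cells it stood at 0.282, 0.242 and 0.257 CPM without copper, from 4 counts in each library, and at 2.36, 2.12 and 2.06 CPM with it. The untreated lines overlapped, and both treated groups lay above them without overlapping each other.

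IL11 rose with copper in KLE cells by 3.04 ± 0.39 on the log2 scale (edgeR, adjusted p = 1.66e-08), from 12 to 100 counts over 3 libraries, a ratio of 8.44 (95% counting interval 4.62 to 16.9). In Ishikawa cells the difference was 4.50 ± 0.31, from 16 to 294 counts, a ratio of 22.4 (13.6 to 39.8). The KLE change was smaller than the Ishikawa change by 1.40 ± 0.56 (-1.40 on the log2 scale), and in treated cells KLE stood at -1.49 ± 0.23 against Ishikawa. Of the 10 genes, IL11 had the largest change in KLE cells among those that passed the count filter. It passed that filter in KLE cells only through its treated libraries.

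IL6, which encodes interleukin-6 (chr7:22725884-22732002, plus strand), was near the limit of detection. It had 2, 3 and 2 counts in untreated and 7, 7 and 4 in treated Ishikawa libraries, and 1, 2 and 1 in untreated and 4, 6 and 13 in treated KLE libraries. The treated libraries lay above the untreated ones in both lines, and treated KLE replicate 3 was the highest. IL6 passed the count filter in no comparison. Without a filter its change in KLE cells was 2.45 ± 0.83 on the log2 scale (edgeR, adjusted p = 0.00959), a count ratio of 5.82 (95% counting interval 1.99 to 23.2), and the count ratio in Ishikawa cells was 3.14 (1.25 to 8.89).

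IL1A and IL1B encode interleukin-1α and interleukin-1β, the first active as its precursor and the second after cleavage by caspase-1. The genes are neighbours on chromosome 2 at chr2:112773915-112784590 and chr2:112829751-112836903 (both minus strand). The promoter window of IL1A is shown for its AP-1 matches, in capitals, one 12 to 6 bases before the start and the other after it, and the window of another annotated start nearby holds the same matches.

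IL1A (chr2:112784444-112784743, minus strand): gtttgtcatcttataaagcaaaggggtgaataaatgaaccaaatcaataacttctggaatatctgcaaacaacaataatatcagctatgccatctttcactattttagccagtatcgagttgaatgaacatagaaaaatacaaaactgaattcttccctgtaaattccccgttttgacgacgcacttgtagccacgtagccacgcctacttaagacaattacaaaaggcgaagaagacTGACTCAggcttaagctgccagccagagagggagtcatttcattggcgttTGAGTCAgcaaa

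IL1A stood at 0.197, 0.115 and 0.241 CPM in untreated and 0.537, 0.352 and 0.805 CPM in treated Ishikawa cells. The KLE libraries stood at 5.56, 3.58 and 5.4 CPM without copper and at 4.98, 6.24 and 7.84 CPM with it. Every KLE library exceeded every Ishikawa library, and the KLE groups overlapped.

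The untreated lines differed by 4.74 ± 0.36 in IL1A (log2 difference, KLE higher), from 222 against 10 counts. The KLE response to copper, 0.39 ± 0.18 (95% interval 0.04 to 0.75), did not pass the test (edgeR, adjusted p = 0.0703). It passed without a count filter (0.39, adjusted p = 0.0422) and without treated KLE replicate 1 (0.54, adjusted p = 0.0152). In Ishikawa cells IL1A did not pass the filter, and its counts went from 10 to 26, a ratio of 3.18 (95% counting interval 1.48 to 7.38).

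IL1B had 3 counts in the first untreated Ishikawa library and 0 in the other 5 Ishikawa libraries. In KLE cells it stood at 3.1, 2.55 and 3.41 CPM without copper and at 1.93, 2.65 and 2.75 CPM with it. IL1B was thus detected almost solely in KLE cells, where the 2 groups overlapped.

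The ratio of the untreated lines was 58.1 in IL1B (139 against 3 counts; 95% counting interval 19.5 to 285). In treated cells KLE libraries held 111 counts and Ishikawa libraries 0. With a floor of 3 counts over the Ishikawa group IL1B was 38.4-fold higher in KLE cells. The lower 95% counting bound without that floor was 30.7-fold. The change with copper in KLE cells was -0.30 ± 0.23 (95% interval -0.76 to 0.15) and did not pass the test (edgeR, adjusted p = 0.285).

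**Figure D2:**
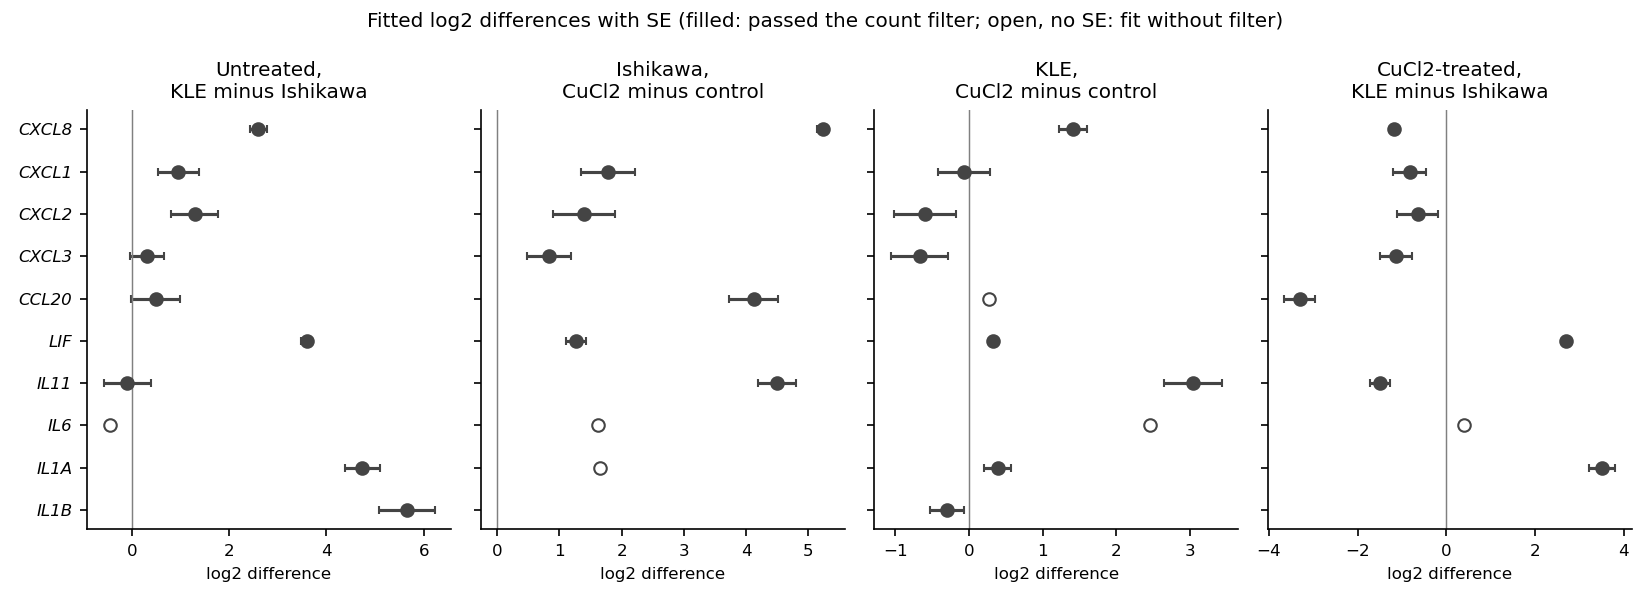
Fitted log2 differences of the 10 genes (x axis, log2 units) in 4 comparisons, with SE bars; open points without bars come from a fit without count filter, and IL1B is not drawn where its Ishikawa libraries leave no fold. CXCL8, CCL20 and IL11 reach 5.23, 4.12 and 4.50 in the Ishikawa panel against 1.41, 0.27 and 3.04 in the KLE panel, while IL1A, IL1B and LIF lead the untreated panel.

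Counted over the group, 3 of 8 genes that passed the filter were called higher with copper in KLE cells (CXCL8, IL11 and LIF), where 25.6% of all 13031 genes tested were called higher. IL11 passed the filter only through its treated libraries (38, 32 and 30 counts, against 4 in each untreated library). A gene that passes in this way can only be called higher, so its place among the 3 is a description. No gene of the 8 was called lower (25.2% of all genes were), and CXCL1, CXCL2, CXCL3, IL1A and IL1B did not pass. At an unadjusted p under 0.05 edgeR gave 4 higher and 0 lower, and DESeq2 called 3 higher (21.5% of all genes) and 0 lower. Without a count filter 5 were called higher, IL1A and IL6 being added, where 19.7% of all 17503 genes were. The library ranges did not overlap for 5 of the 10 genes in that comparison (CXCL8, CXCL3, IL6, IL11 and LIF), a share near the 45.5% of those 17503 genes. The median log2 change of the 8 was 0.13, and that of all genes tested -0.002. The summed leukocyte markers were also higher in treated KLE cells, at 29.6 to 37.5 against 20.7 to 24.2 TPM, through CD68, a lysosomal protein (32.6 against 19.7 TPM), while PTPRC stood at 0.232 against 0.282 TPM. The summed fibroblast and stromal markers ranged from 21.5 to 39.2 TPM in treated and from 31.5 to 64.8 TPM in untreated KLE cells, overlapping, with DCN at 12.5 against 23.1 TPM and VIM at 6.72 against 11.3 TPM, and their part in these changes was not tested.

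The counts for the other comparisons use the libraries on which the genes were chosen, so they describe that choice and nothing is read from them. In Ishikawa cells 7 of 7 genes that passed the filter were called higher, where 33.8% of all 13359 genes were (4514 higher and 4714 lower; 3370 and 6068 when scaled to library totals). CXCL2 was not called there without untreated replicate 1, untreated replicate 3, treated replicate 1 or treated replicate 2, nor CXCL3 without untreated replicate 2 or any 1 treated library. The CXCL3 call was also lost with library totals, upper-quartile factors, no count filter, DESeq2 and on TPM. Between untreated lines 5 of 9 were called higher in KLE cells (CXCL8, CXCL2, IL1A, IL1B and LIF; 24.5% of 13663 genes), and the other 4 were not called. The CXCL2 call there was lost with DESeq2 and with the replicate block. It was also lost without untreated Ishikawa replicate 1 or 3, or any 1 untreated KLE library. The responses of the lines were called different for 7 of 9 (45.4% of all genes), smaller in KLE cells for these 7 (20.8% of all genes) and larger for none (24.6%). That count was 4 without treated KLE replicate 1, the genes left being CXCL8, CXCL1, CCL20 and LIF. The IL11 call among the 7 was lost without any 1 library other than untreated or treated Ishikawa replicate 3. It was also lost with library totals, no count filter, DESeq2, log2(TPM + 0.1) and the replicate block. After copper 3 of 9 were called higher in KLE cells (33.3%) and 4 lower (32.3%). The genes higher in KLE cells after copper were LIF, IL1A and IL1B, and those lower were CXCL8, CXCL3, CCL20 and IL11.

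The windows of 9 of the 10 genes were found in the RefSeq promoter table (LIF was not), and motifs were searched on both strands. The NF-kB consensus matched in CCL20, CXCL1, CXCL2, CXCL3 and IL6, against 11.3% of 35116 promoter windows of the same length. CXCL8 did not hold that consensus. The shorter GGANTTTCC, chosen after the promoters of the group had been read, matched in CXCL8 at 91 to 83 bases before the start and in CXCL1, CXCL2, CXCL3 and IL6, where it overlaps the consensus (1.64% of all windows). A looser form of the NF-kB motif, which fixes only its outer GG and CC, was found in 78.6% of all windows.

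AP-1 (TGANTCA) matched in CXCL8, IL11 and IL1A (7.71% of all windows). The letters TATAAA of the TATA box occurred in CXCL8, CCL20 and IL1A (11.5%). They lay 31 to 26 bases before the start in CXCL8 and 29 to 24 in CCL20. In IL1A they lay 239 to 234 bases before the start, and the window of its other annotated start did not hold them. The heat shock element GAANNTTC occurred only in IL1B among the 9 (6.77% of all windows). The metal response element, TGCACNC or TGCGCNC, occurred in CXCL8 at 61 to 55 bases before the start and in CXCL3 (29.6%), and the antioxidant response element TGACNNNGC in IL1A (13.3%). A match is a description of these letters and not a site of binding.

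**Figure D3:**
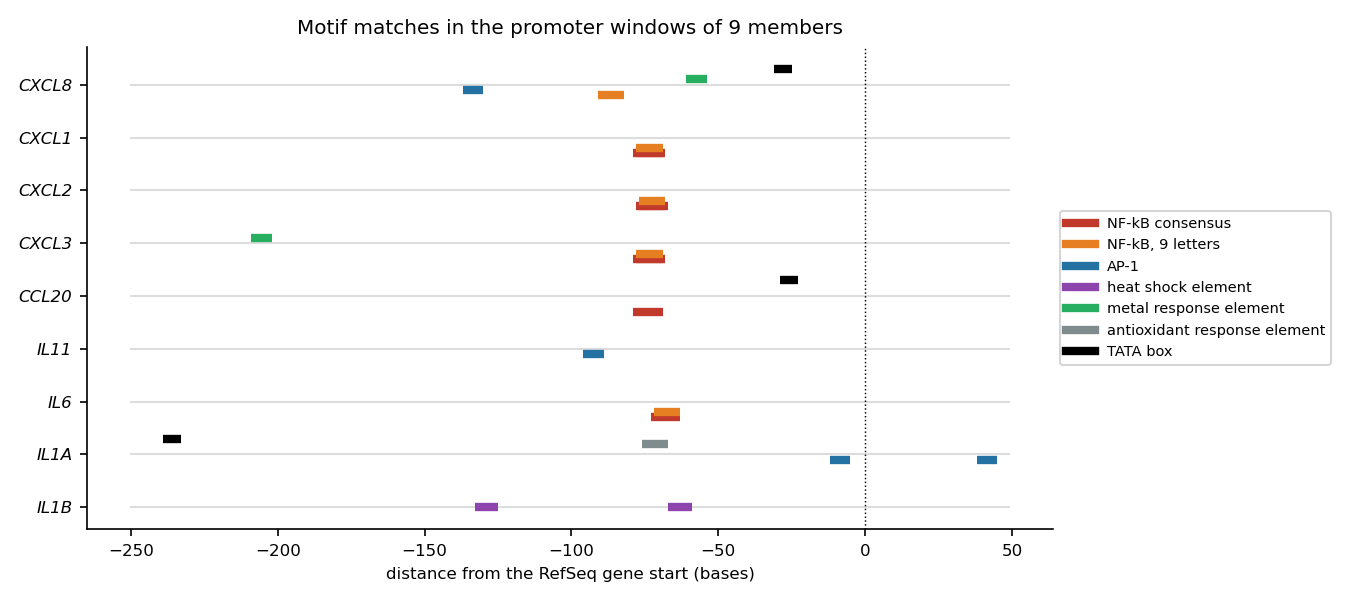
Matches of 7 motifs in the promoter windows of 9 of the genes (x axis: distance in bases from the RefSeq gene start, dotted at 0; one grey line per gene). The NF-kB matches of CXCL1, CXCL2, CXCL3, CCL20 and IL6 lie between 79 and 64 bases before the start, and that of CXCL8 begins 91 bases before it.

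The AU-rich pentamer ATTTA was counted in the 3′ UTRs of the group. It occurred 2.19 times per kb in LIF, 4.34 in IL1A, 5.56 in IL11, 6.65 in CCL20, 7.08 in CXCL1, 7.19 in CXCL8, 9.84 in IL1B, 10.4 in CXCL3, 13.9 in CXCL2 and 14 in IL6. All 10 lay above the median of 1.48 per kb over 18452 genes with a 3′ UTR of at least 50 bases (GENCODE, GRCh38). The density of LIF was reached by 38.65% of these genes, that of IL1A by 13.55% and that of IL11 by 7.799%. For each of the others the share was at most 4.785% (CCL20). The nonamer TTATTTATT, the core of the decay signal that tristetraprolin binds, was present in 7 of the 10 and in 7.71% of all these genes. CCL20, IL1A and IL6 did not hold it.

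Genes around the group were taken from 7 lists of 134 genes. With copper, 40 of the 83 that passed the filter rose and 13 fell in Ishikawa cells, against 33.8% and 35.3% of all genes, and 39 of 85 rose and 14 fell in KLE cells, against 25.6% and 25.2%. The counts of each list below stand against these same shares of all genes. Scaled to library totals, 33 rose and 22 fell in Ishikawa cells, and without untreated replicate 3 the number that fell in KLE cells was 9. All adjusted p-values on these genes are from edgeR with Benjamini-Hochberg adjustment over all genes tested.

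**Figure D4:**
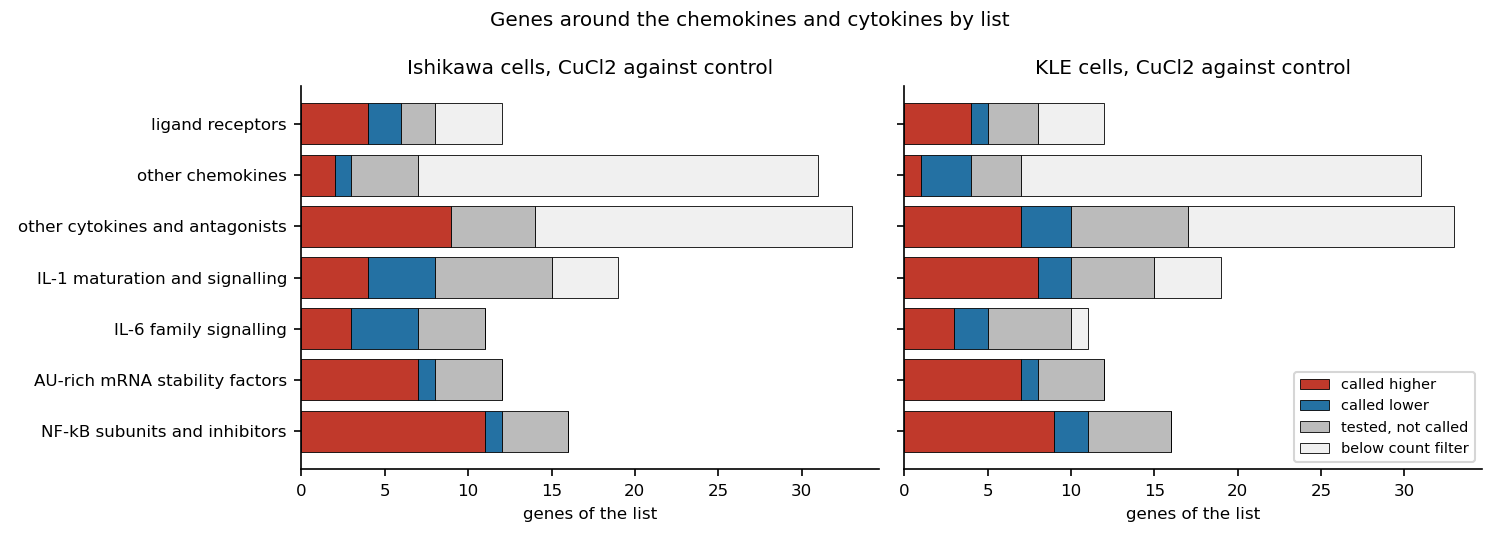
Number of genes of each list (x axis) that were called higher, called lower, tested and not called, or below the count filter with copper, for Ishikawa cells (left) and KLE cells (right). The NF-kB list has 11 of 16 genes called higher in the Ishikawa panel and 9 of 16 in the KLE panel, and 24 of the 31 other chemokines lie below the filter in each line.

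Of 12 receptors for these ligands, CXCR1, CXCR2, CCR6 and ACKR1 did not pass the filter in either line, and 4 of the other 8 rose in each line. IL1R1, the signalling receptor of interleukin-1, fell by 0.75 ± 0.08 in Ishikawa cells (51.2 to 29.3 CPM; adjusted p = 1.11e-06) and by 0.54 ± 0.08 in KLE cells (25.1 to 17.3 CPM; adjusted p = 4.14e-07). The decoy receptor IL1R2 rose by 0.56 ± 0.11 (adjusted p = 0.000276) and 0.35 ± 0.10 (adjusted p = 0.00287). The co-receptor IL1RAP did not pass the test, at -0.16 in Ishikawa cells (adjusted p = 0.122) and -0.09 in KLE cells (adjusted p = 0.334).

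On the gp130 side, IL6R rose by 0.42 ± 0.12 in Ishikawa and 0.78 ± 0.08 in KLE cells, and IL6ST by 0.58 ± 0.05 (164 to 236 CPM) and 0.16 ± 0.03 (286 to 320 CPM). OSMR, the oncostatin M receptor, rose by 0.92 ± 0.06 and 0.62 ± 0.05. LIFR, the LIF receptor, fell by 0.41 ± 0.11 in Ishikawa cells (adjusted p = 0.00462), a call lost on TPM, and stood at -0.23 ± 0.16 in KLE cells (adjusted p = 0.229). IL11RA, the chain specific to interleukin-11, did not pass in either line, at -0.28 (adjusted p = 0.545) and -0.77 (adjusted p = 0.117). Scaling to library totals ended the Ishikawa call of IL6R, as did the fit on log2(TPM + 0.1).

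Few other chemokines were measurable, 7 of 31 in each line. Of these, 2 rose and 1 fell in Ishikawa cells, and 1 rose and 3 fell in KLE cells. Those that rose had a mean under 1 CPM and are not named. In KLE cells CX3CL1, a membrane-bound chemokine, fell by 2.16 ± 0.33 (2.37 to 0.524 CPM; adjusted p = 7.2e-07) and CCL28, a mucosal chemokine, by 1.21 ± 0.19 (adjusted p = 7.11e-07). CXCL12 fell by 1.27 ± 0.41 there (adjusted p = 0.0201), a call that ended without any 1 of untreated replicate 2, untreated replicate 3 or treated replicate 2 (adjusted p between 0.0532 and 0.0716). The stromal markers DCN and VIM were also lower in treated KLE cells, as given above, and their part in the CXCL12 value was not tested. In Ishikawa cells CXCL16, the ligand of CXCR6, fell by 0.54 ± 0.09 (adjusted p = 0.000108).

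Among 33 other cytokines and antagonists, 9 of 14 tested rose and 0 fell in Ishikawa cells (0 fell at an unadjusted p under 0.05 in edgeR or by DESeq2), and 7 of 17 rose and 3 fell in KLE cells. IL32, a proinflammatory cytokine, rose by 4.84 ± 0.23 in Ishikawa cells (0.356 to 10.5 CPM; adjusted p = 1.49e-10) and stood at 0.35 ± 0.33 in KLE cells (adjusted p = 0.399). CLCF1, another gp130 ligand, rose by 3.29 ± 0.14 and 1.45 ± 0.09. IL18, like IL1B a substrate of caspase-1, rose by 2.06 ± 0.38 and 1.39 ± 0.13, and TNFSF9 by 2.04 ± 0.25 and 1.27 ± 0.29.

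TNF rose by 2.01 ± 0.37 in Ishikawa cells (0.714 to 2.65 CPM; adjusted p = 0.000234) and fell by 0.52 ± 0.19 in KLE cells (6.15 to 4.31 CPM; adjusted p = 0.0257). The KLE call ended without treated replicate 1 (-0.28, adjusted p = 0.211), untreated replicate 1 or untreated replicate 3. It also ended with DESeq2 (adjusted p = 0.0667) and on TPM with either pseudocount. TSLP fell by 0.96 ± 0.32 in KLE cells (adjusted p = 0.011), and this call ended without untreated or treated replicate 3. IL1RN, the interleukin-1 receptor antagonist, did not pass in KLE cells (0.24, adjusted p = 0.573) and was below the filter in Ishikawa cells.

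In the list of interleukin-1 maturation and signalling, 4 of 15 rose and 4 fell in Ishikawa cells, and 8 of 15 rose and 2 fell in KLE cells. CASP4, an inflammatory caspase, rose by 4.61 ± 0.27 (0.444 to 9.61 CPM) in Ishikawa cells and 2.50 ± 0.23 (1.08 to 6.17 CPM) in KLE cells, and the inflammasome sensor NLRP1 by 3.44 ± 0.13 and 2.77 ± 0.22. GSDMD, the pore-forming protein through which mature interleukin-1β leaves cells, fell by 1.80 ± 0.17 and 0.55 ± 0.18. The KLE call of GSDMD ended without untreated replicate 1 (adjusted p = 0.0562).

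TAB1 fell by 0.70 ± 0.10 and 0.38 ± 0.09 while its partner kinase MAP3K7 (TAK1) rose by 0.51 ± 0.06 and 0.17 ± 0.05. IRAK2 fell by 0.79 ± 0.33 in Ishikawa cells (adjusted p = 0.0445), a call that 4 of the 6 left-out libraries ended (untreated replicates 1 and 2, treated replicates 1 and 3). DESeq2 also ended that call (adjusted p = 0.113). CAPN2, a calpain subunit of the protease family that cleaves the interleukin-1α precursor, rose by 0.64 ± 0.04 in KLE cells (195 to 303 CPM; adjusted p = 9.2e-19) and stood at 0.07 ± 0.06 in Ishikawa cells (adjusted p = 0.279).

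Of the IL-6 family signalling list, 3 of 11 rose and 4 fell in Ishikawa cells, and 3 of 10 rose and 2 fell in KLE cells. JAK1 rose by 0.97 ± 0.11 and 0.41 ± 0.09, PTPN11 by 0.47 ± 0.04 and 0.14 ± 0.03 and STAT3 by 0.25 ± 0.05 and 0.32 ± 0.04. The PTPN11 call in KLE cells was lost on TPM (0.09 with either pseudocount, adjusted p = 0.0944 and 0.0942). The STAT3 call in Ishikawa cells was lost with library totals (0.10, adjusted p = 0.0909) and on TPM. PIAS3, an inhibitor of STAT3, fell by 1.00 ± 0.08 and 0.20 ± 0.07, the latter not called without untreated replicate 1 or treated replicate 3. Its KLE call also ended with DESeq2 (adjusted p = 0.0606).

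SOCS3, a STAT3 target that restrains gp130, did not pass the test (0.29, adjusted p = 0.0823 in Ishikawa cells, and 0.23, adjusted p = 0.15 in KLE cells). SOCS2 fell by 0.82 ± 0.14 and CISH by 1.19 ± 0.33 in Ishikawa cells. SOCS1 fell by 0.89 ± 0.35 in KLE cells (adjusted p = 0.0299), which did not hold without untreated replicate 2, untreated replicate 3, treated replicate 1 or treated replicate 3. DESeq2 did not call SOCS1 there either (adjusted p = 0.0995).

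Of 12 factors that act on AU-rich transcripts, 7 rose and 1 fell in each line. Of all genes, 33.8% rose in Ishikawa cells and 25.6% in KLE cells. ZFP36 rose by 1.50 ± 0.09 in Ishikawa cells (21.5 to 59 CPM; adjusted p = 1.82e-09) and by 0.21 ± 0.08 in KLE cells (28.3 to 32.8 CPM; adjusted p = 0.0299), and the KLE call ended without untreated replicate 2, treated replicate 2 or treated replicate 3. That KLE call also ended with library totals, upper-quartile factors, DESeq2 (adjusted p = 0.0771) and TPM. DUSP1, a phosphatase of the p38 kinase that controls ZFP36, rose by 2.17 ± 0.09 and 0.28 ± 0.09. ZC3H12A (regnase-1), a nuclease for cytokine transcripts, rose by 1.48 ± 0.11 and 0.33 ± 0.11, and its KLE call ended without treated replicate 2 (adjusted p = 0.0615).

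MAPKAPK2, the kinase that phosphorylates ZFP36, rose by 0.92 ± 0.05 and 0.34 ± 0.04. ZFP36L2 fell by 0.48 ± 0.08 in Ishikawa cells, ZFP36L1 rose by 0.34 ± 0.04 in KLE cells, and HNRNPD (AUF1) fell by 0.18 ± 0.04 there.

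In the NF-kB list 11 of 16 rose and 1 fell in Ishikawa cells, and 9 rose and 2 fell in KLE cells. TNFAIP3 (A20), an inhibitor induced by the pathway, rose by 2.37 ± 0.10 (6.97 to 34.8 CPM) and 0.75 ± 0.11 (9.11 to 15.3 CPM), and NFKB2 by 1.39 ± 0.06 and 0.49 ± 0.05. RELB rose by 1.69 ± 0.17 in Ishikawa cells and stood at 0.23 ± 0.12 in KLE cells (adjusted p = 0.104). IKBKG, the regulatory subunit of the IKK complex, rose by 0.46 ± 0.13 and 0.40 ± 0.09.

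NFKBIA (IκBα), the first inhibitor that NF-kB induces, rose by 0.21 ± 0.07 in Ishikawa cells (35.4 to 39.3 CPM; adjusted p = 0.0197) and fell by 0.41 ± 0.06 in KLE cells (44.5 to 33.5 CPM; adjusted p = 1.13e-06). The Ishikawa call was lost with library totals (0.05, adjusted p = 0.524), with upper-quartile factors (0.10, adjusted p = 0.243), on TPM, and without untreated replicate 3, treated replicate 1 or treated replicate 2. REL rose by 0.27 ± 0.07 and fell by 0.13 ± 0.05, the latter not called without untreated replicate 1, untreated replicate 3 or treated replicate 1. Its KLE call also ended with DESeq2 (adjusted p = 0.0956) and on TPM. NFKBIE fell by 0.47 ± 0.20 in Ishikawa cells (adjusted p = 0.0463), a call ended by leaving out any 1 library but untreated replicate 3. RLE factors, DESeq2 (adjusted p = 0.139) and TPM also ended that call.

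The genes whose levels over the 12 libraries were most like those of CXCL8, by Pearson's r of log2(CPM + 1) among 12504 genes, were DNAJB9 (0.996), DNAJA4 (0.995), DNAJB6 (0.995), GADD45A (0.994) and NFKB1 (0.993). Those most like IL1A were MACF1 (0.989), CAST (0.989), CLDN1 (0.988), FMN1 (0.988) and LIPG (0.987). The libraries fall into 4 groups, so these values mostly describe the order of 4 group means.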

How the data were processed

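Bulk RNA sequencing of 12 libraries was deposited in 3 units. The authors' tables give whole counts per gene, expected counts and TPM, and what is named FPKM is TPM, per the file headers. The deposited whole counts are the authors' expected counts rounded, with differences of at most 0.5. Of the 120 expected counts of the 10 genes, 0 were not whole, so no reads split between CXCL1, CXCL2 and CXCL3 were seen. How reads common to these 3 genes were assigned is not given. The submitters' processing notes name R 4.2.2, HISAT2 2.1.0, Bowtie2 2.2.8, fastp 0.18.0, DESeq2, RSEM and the build GRCh38.p14, without their roles. Genes without a symbol (617) were kept in all fits.

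Counts were tested with edgeR 4.0.16 in R 4.3.3 (robust quasi-likelihood fit with TMM factors after filterByExpr; two-sided; called at an adjusted p under 0.05, Benjamini-Hochberg, over all genes tested). Copper was tested within the 6 libraries of each line, and lines were compared in a fit of all 12. The method was checked on simulated data, with changes placed only in more highly expressed genes and with a fixed spread. That check does not cover changes of genes with few counts, the response difference or the comparison of treated lines. Libraries held 14050275 to 25057003 counts, so 1 count is worth under 0.1 CPM, and counting intervals cover counting error only. The SE is the absolute log2 change over the square root of the F statistic and is too small for genes with few counts. Intervals of log2 changes are 1.96 SE to either side, a normal multiplier. With 3 libraries per group they can be narrower than 95%, also for genes with many counts. Members that failed the count filter are given from a fit without it. Alternatives were other scaling factors, other filters, a log2 change of at least 1, DESeq2 1.42.0, limma 3.58.1 on log2(TPM + 1) or log2(TPM + 0.1), a replicate block and leaving out each library.

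Promoters came from RefSeq (GRCh38.p14), gene positions and 3′ UTRs from GENCODE (GRCh38), and coding identity from pairwise alignment. The 10 genes and the lists were chosen with earlier results of these data known. Of each list, up to 3 called genes per direction and line with the largest log2 change and a mean of at least 1 CPM are named, with all receptors that passed the filter, IL1RN, SOCS3, ZFP36 and NFKBIA. Some genes that this rule takes are counted and not reported here by name.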

Additional observations from a re-analysis of the deposited data

Results flagged for a closer look

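CXCL3 lay higher in every treated than in every untreated Ishikawa library and lower in every treated than in every untreated KLE library, and the difference between the responses was -1.45 on the log2 scale (KLE minus Ishikawa). No test of that difference is given, since the gene was chosen on libraries that enter it. In KLE cells the change of CXCL3 did not pass the test (-0.67 ± 0.39; edgeR, adjusted p = 0.145). Ranges did not overlap there for 45.5% of all genes with a count. Each library held only 9 to 26 counts of CXCL3.

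The copper responses of the lines differed for 45 of 88 surrounding genes tested, 51.1%, by the interaction test of edgeR (adjusted p under 0.05, where 45.4% of all genes tested passed). The 30 given here are among the genes that the report names, and each value is the KLE minus the Ishikawa log2 change. They are from the fit with TMM factors, and how each holds under the alternatives is not given. Over all genes, that fit called 3358 differences above 0 and 2848 below. RLE factors, another scaling, gave 2942 and 3196, and library totals 4151 and 2349. The smaller values among the 30 may therefore depend on the scaling. Among receptors OSMR was at -0.25, IL6ST at -0.36 and IL6R at 0.43. Among chemokines CXCL16 was at 0.73, CX3CL1 at -2.67 and CCL28 at -0.96. Among cytokines IL32 was at -4.43, TNF at -2.48, CLCF1 at -1.77 and TSLP at -1.19.

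In interleukin-1 maturation and signalling the values were -2.05 for CASP4, 1.30 for GSDMD, -0.29 for MAP3K7, 0.38 for TAB1 and 0.62 for CAPN2. In IL-6 family signalling they were -0.50 for JAK1, -0.27 for PTPN11, 0.86 for PIAS3 and 0.99 for SOCS2. Among factors of AU-rich transcripts DUSP1 was at -1.84, ZFP36 at -1.23, ZC3H12A at -1.09, MAPKAPK2 at -0.53, ZFP36L2 at 0.52 and ZFP36L1 at 0.37. In the NF-kB list TNFAIP3 was at -1.56, RELB at -1.40, NFKB2 at -0.85, NFKBIA at -0.56 and REL at -0.34.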

How the results depend on the processing

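Of 785 values of the 10 genes under the alternatives, 719 kept their direction and side of the threshold, 44 were no longer called, 14 became called and 8 changed sign; of 1093 values of the named surrounding genes these numbers were 1018, 69, 4 and 2. Without a count filter 5 of the 10 genes were called higher in KLE cells instead of 3 (IL1A and IL6 added), and on TPM with either pseudocount 1 was called lower instead of 0 (CXCL3). Counts that only describe the choice of the genes also moved when single libraries were left out: the smaller response in KLE cells was called for 4 to 7 genes, 4 without treated KLE replicate 1, and 5 to 6 were called higher in Ishikawa cells instead of 7. With a log2 change of at least 1, surrounding genes called in Ishikawa cells were 20 higher and 3 lower, and in KLE cells 10 higher and 4 lower. Library totals gave 22 and upper-quartile factors 21 lower in Ishikawa cells instead of 13, and these scalings moved the median log2 change of all genes there to -0.167 and -0.125. Leaving out single libraries gave 11 to 16 lower in Ishikawa cells and 9 to 13 lower in KLE cells, with 9 without untreated KLE replicate 3.

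Sign changes were all among values that did not pass the test. CXCL1 in KLE cells ranged from -0.19 to 0.06 when 1 library was left out (0.06 without untreated replicate 1, 0.02 without treated replicate 2). Between untreated lines and leaving out 1 library, CXCL3 ranged from -0.03 to 0.48 and CCL20 from -0.18 to 1.19, both lowest without untreated Ishikawa replicate 2, and IL11 from -0.35 to 0.42, highest without untreated Ishikawa replicate 3. The response difference of IL1B ranged from -0.30 (without untreated Ishikawa replicate 1) to 3.37 and was -0.12 on log2(TPM + 1). LIFR in KLE cells went to 0.01 on log2(TPM + 1), and IL11RA in Ishikawa cells ranged from -0.66 to 0.06, highest without untreated replicate 2. The cause was not tested.

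The replicate number was also entered as a block. Deviations of same-numbered libraries from their group means correlated at 0.05 to 0.17 in Ishikawa cells and -0.08 to -0.04 in KLE cells. With deviations from means of 3 libraries, such values cannot decide whether same-numbered libraries were paired. With the replicate block 3 of the 10 genes were called higher and 0 lower in KLE cells, as without it, and IL11 between untreated lines changed from -0.09 to 0.13. The block ended the calls of CXCL2 between untreated lines (4 members called instead of 5), IL11 in the response difference (6 instead of 7), ZFP36 (adjusted p = 0.0795), CXCL12 (0.0635) and REL (0.0554) in KLE cells and NFKBIE in Ishikawa cells (0.0562), all edgeR, and no other call of the 10 genes or of a named gene. In untreated Ishikawa cells most of the 10 genes had under 20 counts per library, which limits their folds.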
